A study of Macaca mulatta with 31 samples.

Results

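Single rhesus macaque blastocysts that were fragmented or non-fragmented during development were compared after a Western-style diet (WSD), for the expression of all genes, the number of detected genes and the spread between blastocysts. The 17 blastocysts, of 31 with counts in all, were chosen by the labels for diet and morphology. The authors had removed an outlier of each diet after sequencing. WSD 1–8 and WSD 18 were fragmented (n = 9), and WSD 9–12 and WSD 14–17 were non-fragmented (n = 8). All came from oocytes of the second controlled ovarian stimulation (COS #2), taken after months on the high-fat diet and fertilized in vitro, and all were labelled non-multipolar, meaning that only bipolar divisions had been seen. In the same cohort of young females, blastocysts of the first stimulation (COS #1), on a standard chow diet (SCD), were grouped in the same way (6 fragmented, 8 non-fragmented) and are shown beside the WSD values. Each library was made from the amplified cDNA of 1 whole blastocyst. The comparison asks whether blastocysts that had shed fragments differed in their transcripts from those that had not.

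Cellular fragmentation is the pinching off of small pieces of cytoplasm without a nucleus from dividing embryonic cells, and fragments can carry away RNA, organelles and sometimes chromosomes. The oocyte supplies a store of maternal transcripts, most of which are degraded as the embryo's own genome becomes active. At the blastocyst stage, an outer trophectoderm, the source of the placenta, surrounds an inner cell mass that gives rise to the epiblast and the primitive endoderm.

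The labelled stage was checked with marker genes, given in CPM, the count of a gene scaled by the total of its library after adjustment by its TMM factor. The trophectoderm gene *CDX2* had 116 ± 91.0 CPM (SD, n = 9) in fragmented and 102 ± 74.5 CPM (SD, n = 8) in non-fragmented WSD blastocysts. The pluripotency gene *POU5F1* had 658 ± 167 CPM (SD, n = 9) and 716 ± 341 CPM (SD, n = 8), and the endoderm gene *GATA6* had 385 ± 144 CPM (SD, n = 9) and 347 ± 88.4 CPM (SD, n = 8). Markers of all 3 lineages were thus present in both classes. *KRT8* and *SOX2* had no matched identifier. *AMH*, *FSHR* and *FOXL2*, which define granulosa cells of the ovarian follicle, were at or near 0, with class means of at most 0.0850 CPM. Of the other genes listed for granulosa and cumulus cells, the steroidogenic genes *CYP11A1* and *STAR* had class means of 172 and 194 CPM and of 47.0 and 55.7 CPM (fragmented before non-fragmented). The inhibin subunit *INHA* had means of 4.17 and 1.47 CPM but medians of 0.278 and 0.0317 CPM. The remaining listed genes had class means of at most 2.10 CPM, the fragmented mean of *HAS2*.

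Fragmented blastocysts had total counts between 16.8 M and 29.9 M (M for mega), with a median of 22.0 M, and non-fragmented ones between 10.0 M and 20.2 M, with a median of 16.2 M. The means were 22.5 ± 4.0 M (SD, n = 9) and 15.7 ± 2.88 M (SD, n = 8; two-sided exact permutation test, p = 0.00107; adjusted p = 0.00856 over 8 measures). The totals of 6 of the 9 fragmented blastocysts lay above all 8 non-fragmented ones. Sequencing depth therefore differed between the classes, and values at equal depth are given for detected genes, for the test of each gene and for the oocyte genes. No libraries were duplicates by their counts: pairs of the same class differed by at least 48.1 times the counting variance, the lowest value being that of WSD 2 and WSD 3.

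At least 1 count was found for 17339 to 20863 genes in fragmented blastocysts (median 18938) and for 14428 to 19142 genes in non-fragmented ones (median 16721.5). The mean was 18827 ± 1182 genes (SD, n = 9) against 16616 ± 1627 (SD, n = 8), a difference of 2211 genes (two-sided exact permutation test, p = 0.00621; adjusted p = 0.0248). The classes overlapped, with 4 fragmented blastocysts above all non-fragmented ones and 5 non-fragmented blastocysts below all fragmented ones. After the counts were thinned at random to 10037852 per blastocyst, the lowest total, fragmented blastocysts had 16087 to 18627 detected genes (median 17685) and non-fragmented ones 14428 to 17940 (median 16179). The difference was then 1484 genes (two-sided exact permutation test, p = 0.0195; adjusted p = 0.0443), with means of 17512 ± 998 (SD, n = 9) and 16028 ± 1286 (SD, n = 8). The higher number of detected genes in the fragmented class was therefore smaller at equal depth but still past the threshold. Among genes with 1 CPM or more the difference was 286 genes, against 2211 with 1 count or more. WSD 10, WSD 12 and WSD 16 were the lowest of all 17 at equal depth, with 14428, 14886 and 14617 genes. When each blastocyst was left out in turn, the difference at equal depth stayed between 1255 and 1757 genes, with an unadjusted p of at most 0.0408 (exact permutation tests).

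**Figure D1:**
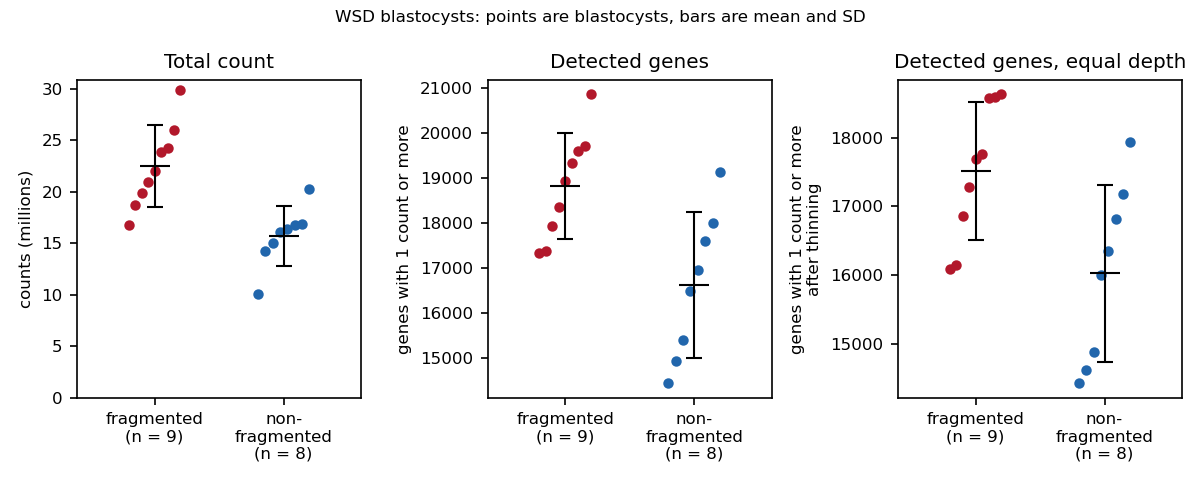
Total count (in M, as labelled on the axis), detected genes and detected genes at equal depth (genes with 1 count or more) for each WSD blastocyst. Points are blastocysts and bars are the mean and SD of 9 fragmented and 8 non-fragmented blastocysts. All 3 measures were higher in the fragmented class, and the classes overlapped in each.

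Few genes were detected throughout one class and seldom in the other. At equal depth, 10561 genes were detected in all 17 blastocysts, 11639 in all 9 fragmented ones and 10932 in all 8 non-fragmented ones. There were 69 genes found in all 9 fragmented blastocysts and in at most 4 non-fragmented ones, and 3 genes with the opposite pattern. By comparison, 26931 genes were detected in at least 1 fragmented blastocyst and 24698 in at least 1 non-fragmented one. The limits were unlike, at most 4 of 8 blastocysts for the 69 genes and at most 4 of 9 for the 3. How far these counts rest on the non-fragmented blastocysts with the fewest detected genes was not tested. The genes that the filter on low counts removed before the test, some of them high in a few blastocysts, took 0.253% ± 0.0838 (SD, n = 9) of the counts in fragmented and 0.173% ± 0.0276 (SD, n = 8) in non-fragmented blastocysts (two-sided exact permutation test, p = 0.0221; adjusted p = 0.0443). This share was above all non-fragmented values in 5 of the 9 fragmented blastocysts, with the highest values in WSD 5 (0.380%), WSD 4 (0.341%) and WSD 8 (0.331%). The 20 genes with the most counts took shares that differed by less than the spread between blastocysts, 8.18% ± 0.884 (SD, n = 9) and 7.89% ± 0.422 (SD, n = 8; two-sided exact permutation test, p = 0.438; adjusted p = 0.50).

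In the test of each gene, 0 of 12724 genes (0%) passed an adjusted p of 0.05 between the fragmented and non-fragmented WSD classes in the quasi-likelihood F test of edgeR, which is two-sided. The smallest adjusted p was 0.248. At an unadjusted p under 0.05 there were 447 genes, of which 275 (2.16%) had a higher and 172 (1.35%) a lower level in the fragmented class, where 636 in all would be expected by chance. This balance depended on the model and on WSD 8: without WSD 8 there were 398 higher and 587 lower genes, and with detected genes as a covariate 106 and 114. It leaned further to higher levels without a filter (2891 and 978), in the model of all 31 blastocysts (566 and 185) and without WSD 16 (237 and 95), and less without WSD 9 (385 and 312). At equal depth it was 210 and 174, with 0 of 11602 genes called by edgeR. DESeq2's Wald test called 11 genes at adjusted p from 1.54e-06 to 0.0475, namely *TDH*, *WEE2*, *GDF9*, *NLRP4*, *RSPO2*, *MAP3K7CL*, *LRGUK*, *NLRP8*, *DIRAS2*, ENSMMUG00000049854 and ENSMMUG00000053747. The newer form of edgeR's test (legacy=FALSE) called 6 at adjusted p from 0.0185 to 0.0363, namely *WEE2*, *ACCSL*, *GDF9*, *DIRAS2*, *NLRP4* and *NLRP8*. All of these were at a higher level in fragmented blastocysts, and *DIRAS2* and ENSMMUG00000053747 are named after their values were seen. The fitted difference was small for most genes, with a median log2 fold change of 0.00 and a median size of 0.24. For 51.4% of the genes the 95% interval lay within a 2-fold difference in either direction. More than 2-fold differences were fitted for 440 of the 12724 genes with a higher and 165 with a lower level in the fragmented class. After SCD these were 680 and 139 of 13561 genes. Since the main edgeR test called no gene, the genes described next are ranked by its p within each direction.

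*TDH* (ENSMMUG00000029032), which encodes the enzyme threonine dehydrogenase, ranked first. In fragmented WSD blastocysts it ran from 0.176 to 10.1 CPM (median 1.26 CPM), and in non-fragmented ones from 0 to 0.191 CPM (median 0.0688 CPM). All fragmented blastocysts but WSD 4 lay above all non-fragmented ones, at low levels throughout. The log2 fold change was 4.93 (SE 0.90; adjusted p = 0.248 by edgeR), and DESeq2 called the gene. *TDH* passed the filter on low counts in only 9 of the 17 fits that left out 1 blastocyst.

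*WEE2* (ENSMMUG00000044167; chromosome 3, 168103987–168125745, plus strand) encodes an oocyte kinase that inhibits CDK1 and holds the oocyte in meiotic arrest. It ran from 0.176 to 76.4 CPM (median 20.9 CPM) in fragmented blastocysts, and from 0.0633 to 3.45 CPM (median 1.15 CPM) in non-fragmented ones. WSD 1 and WSD 2 were highest with 76.4 and 53.8 CPM, the next was WSD 7 with 37.2 CPM, and WSD 4 fell among the non-fragmented values. The log2 fold change of *WEE2* was 4.46 (SE 0.85; adjusted p = 0.248 by edgeR). With each blastocyst left out in turn, its adjusted p ran from 0.0388 (without WSD 4) to 0.909 (without WSD 2), and the fit without WSD 4 was the only one of these with a call. DESeq2 gave an adjusted p of 1.54e-06 for *WEE2*.

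*GDF9* (ENSMMUG00000060221; chromosome 6, 130301964–130307221, minus strand) encodes a growth factor that the oocyte secretes to the surrounding follicle cells. It ran from 2.59 to 25.6 CPM (median 12.3 CPM) in fragmented blastocysts, and from 0 to 3.49 CPM (median 1.03 CPM) in non-fragmented ones. WSD 4 was again the only fragmented blastocyst below the highest non-fragmented one. The log2 fold change was 3.45 (SE 0.74; adjusted p = 0.467 by edgeR), and both DESeq2 and edgeR with legacy=FALSE called the gene. *NLRP4* (ENSMMUG00000028711; chromosome 19, 55610735–55641024, plus strand), a member of a family of NLR genes expressed in oocytes, ran from 0.0440 to 68.1 CPM (median 14.7 CPM) in fragmented blastocysts. In non-fragmented ones it ran from 0 to 3.83 CPM (median 0.122 CPM), and the log2 fold change was 4.63 (SE 1.09; adjusted p = 0.823 by edgeR). Both other tests called *NLRP4* as well. It has close relatives in the genome, and only uniquely aligned reads were counted, so its level is uncertain.

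*ACCSL* (ENSMMUG00000019693; chromosome 14, 21692317–21705405, minus strand) ran from 0 to 36.6 CPM (median 8.93 CPM) in fragmented blastocysts, and from 0 to 2.11 CPM (median 0.0655 CPM) in non-fragmented ones (log2 fold change 4.45). *RSPO2* (ENSMMUG00000054660; chromosome 8, 108094256–108261359, minus strand) encodes an R-spondin, a secreted protein that enhances WNT signalling. It ran from 0.0440 to 6.27 CPM (median 1.62 CPM), against 0 to 0.604 CPM (median 0.0479 CPM), with a log2 fold change of 3.85. For both genes WSD 4 was the lowest fragmented blastocyst and the other 8 lay above all non-fragmented ones. *MAP3K7CL* (ENSMMUG00000061208; chromosome 3, 17490949–17536194, minus strand) ran from 0.0440 to 4.16 CPM (median 2.77 CPM) in fragmented blastocysts, while 7 of the 8 non-fragmented ones had none and WSD 9 had 0.714 CPM. DESeq2 called *RSPO2* and *MAP3K7CL*, and edgeR with legacy=FALSE called *ACCSL*. When blastocysts were removed singly, *RSPO2* and *MAP3K7CL* each had enough counts to be tested in just 10 of 17 models, and *ACCSL* in all 17. Across the 10 ranked genes with a higher level, WSD 4 was the lowest fragmented blastocyst in 7, and WSD 1 and WSD 2 were among the highest pair in 6 and 7.

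The other 3 ranked genes with a higher level have no symbol. ENSMMUG00000049854 ran from 0.0422 to 65.6 CPM (median 2.93 CPM) in fragmented blastocysts and from 0 to 0.774 CPM (median 0.169 CPM) in non-fragmented ones. Its classes overlapped, with 6 of the 9 fragmented blastocysts above all non-fragmented ones. ENSMMUG00000049833 ran from 0.165 to 1311 CPM in fragmented blastocysts, but its median of 0.848 CPM was close to the non-fragmented median of 0.824 CPM. Its log2 fold change of 8.10 rests on WSD 4 and WSD 5 and was -0.49 without them. ENSMMUG00000060590, with a highest value of 189 CPM and medians of 0.755 and 0.460 CPM, was likewise high only in WSD 4 and WSD 5. When blastocysts were removed singly, ENSMMUG00000049854 and ENSMMUG00000060590 each had enough counts to be tested in just 12 of 17 models, and ENSMMUG00000049833 in all 17.

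**Figure D2:**
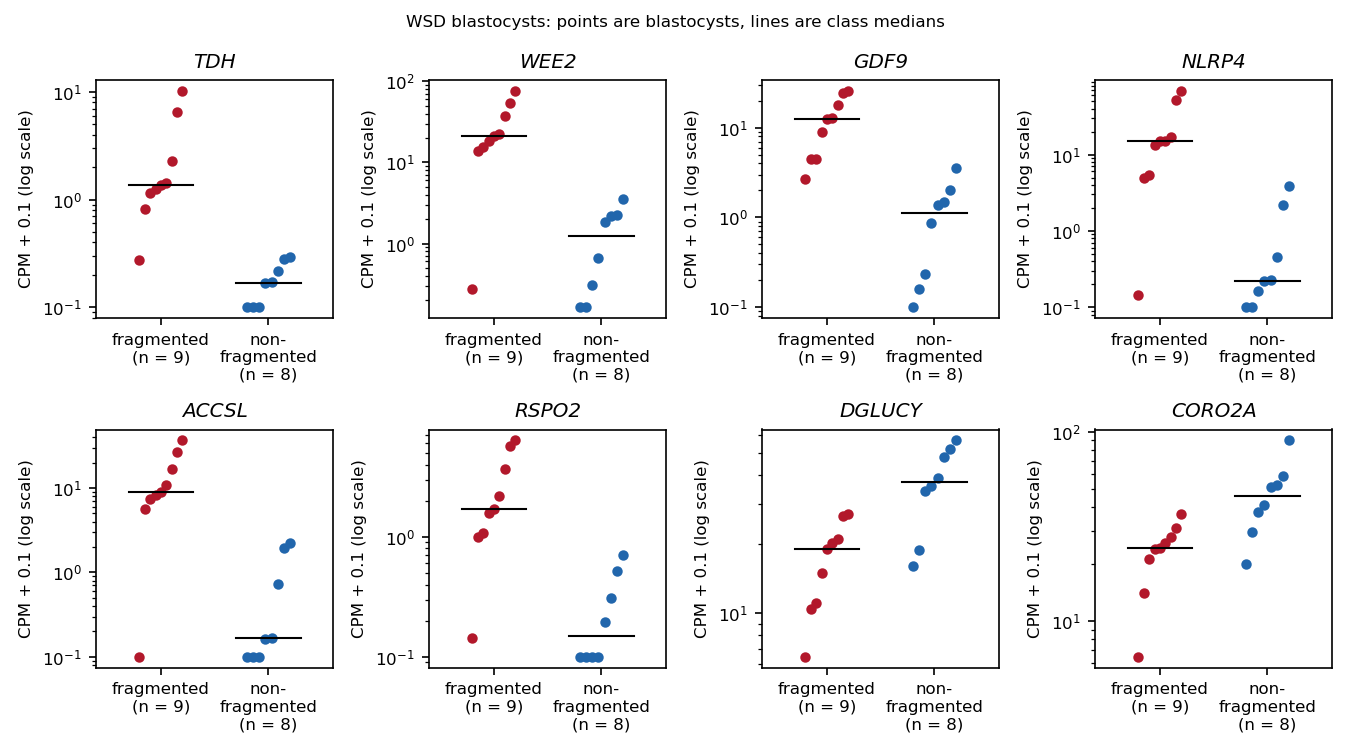
CPM plus 0.1 on a log scale for 6 genes ranked higher (*TDH*, *WEE2*, *GDF9*, *NLRP4*, *ACCSL*, *RSPO2*) and 2 ranked lower (*DGLUCY*, *CORO2A*) in fragmented WSD blastocysts. Points are blastocysts and lines are class medians (9 fragmented, 8 non-fragmented). In each of the 6 genes a single fragmented blastocyst, WSD 4, lay at or below the highest non-fragmented value.

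The classes did not overlap in 2 genes with a higher level in fragmented blastocysts (0.0157% of the genes tested) and in 0 genes (0%) with a lower level. Both were singled out after their values were seen. The filter on low counts keeps genes that are high in a single class, of 9 or of 8 blastocysts. It can thus treat the 2 directions unequally, and both genes could pass it mainly by their fragmented values. By edgeR, both had an unadjusted p under 0.05 and neither was called, while DESeq2 called both and edgeR with legacy=FALSE called *NLRP8*. *LRGUK* (ENSMMUG00000000915; chromosome 3, 160438248–160567379, plus strand), known from sperm development, had means of 1.39 and 0.0943 CPM (log2 fold change 3.71). *NLRP8* (ENSMMUG00000009935; chromosome 19, 55708888–55757555, plus strand), another oocyte NLR gene, ran from 1.67 to 13.2 CPM in fragmented and from 0 to 1.63 CPM in non-fragmented blastocysts (log2 fold change 3.72).

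Because several of these genes are known from oocytes, a list of 40 oocyte genes was drawn up after the values were seen. It serves as a description only. It includes *WEE2*, *GDF9*, *NLRP4*, *ACCSL* and *NLRP8*, already ranked or singled out above, so its counts and medians were partly fixed by that choice. It had 39 genes in the table, of which 28 passed the filter on low counts. Of these, 23 had a higher fitted level in fragmented blastocysts, 16 of them at an unadjusted p under 0.05 by edgeR and 0 after adjustment, and 0 had a lower level at that p. Of all 12724 genes tested, 6435 had a higher fitted level, 275 (2.16%) of them at that p. DESeq2 called *WEE2*, *GDF9*, *NLRP4* and *NLRP8* of the list. The median log2 fold change of the 28 was 1.83, and that of all genes tested was 0.00. Since the filter keeps genes that are high in one class, all 39 were also fitted without it: 32 had a higher level and the median was 2.18, where 17884 of all 30007 genes had a higher level and their median was 0.16. At equal depth, 15 of the 20 tested had a higher level, 12 of them at an unadjusted p under 0.05. Of all 11602 genes in that fit, 5749 had a higher level, 210 of them at that p. Without WSD 1 and WSD 2, often the highest blastocysts, 11 of 25 genes had a higher and 1 a lower level at an unadjusted p under 0.05. The median of the 25 was 1.53. Of all 12565 genes in that fit, 257 were higher and 172 lower at that p, and the median was 0.01. With the log10 total count or detected genes as a covariate, 97 and 106 of all 12724 genes were higher at that p. The values of the oocyte list in the fits with a covariate are not given here.

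By role, the oocyte genes at a higher level included the secreted factor *BMP15*, the partner of *GDF9*, with 4.39 ± 5.60 CPM (SD, n = 9) and 0.301 ± 0.531 CPM (SD, n = 8) and a log2 fold change of 3.78. The zona pellucida genes *ZP2* and *ZP3*, which encode proteins of the oocyte's coat, had log2 fold changes of 1.80 and 1.69. *BTG4*, an adaptor needed for the decay of maternal mRNA, had 5.47 ± 3.02 CPM (SD, n = 9) and 0.831 ± 1.04 CPM (SD, n = 8). The importin gene *KPNA7* had 16.2 ± 12.3 CPM (SD, n = 9) and 2.12 ± 2.20 CPM (SD, n = 8). The secreted oocyte proteins *OOSP1* and *OOSP4A* had log2 fold changes of 3.10 and 3.44, and the transcript of the meiotic kinase *MOS* had no count in the non-fragmented class and a mean of 0.340 CPM in the fragmented class. *MOS* did not pass the filter on low counts, and none of the other genes with values in this paragraph was called by edgeR or DESeq2.

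The 4 most abundant genes of the list, *DPPA3*, *KHDC3L*, *OOEP* and *SOHLH2*, did not reach an unadjusted p under 0.05 in either direction. *DPPA3* had 853 ± 300 CPM (SD, n = 9) in fragmented and 982 ± 422 CPM (SD, n = 8) in non-fragmented blastocysts (log2 fold change -0.20). *OOEP*, a part of the subcortical maternal complex, had 164 ± 52.4 CPM (SD, n = 9) and 203 ± 138 CPM (SD, n = 8), and *TLE6*, of the same complex, had a log2 fold change of -0.80. The summed level of the list, 1625 ± 443 CPM (SD, n = 9) and 1565 ± 600 CPM (SD, n = 8), differed by less than the spread between blastocysts. The number of the 39 genes detected at equal depth ran from 23 to 37 (median 34) in fragmented and from 16 to 32 (median 25.5) in non-fragmented blastocysts. In whole blastocysts, fewer cells that hold a transcript and less RNA per cell cannot be told apart.

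Differences in the other direction were smaller. *DGLUCY* (ENSMMUG00000008964; chromosome 7, 153207943–153371563, plus strand), which encodes the mitochondrial D-glutamate cyclase, ran from 6.34 to 27.0 CPM (median 19.0 CPM) in fragmented blastocysts, and from 15.9 to 56.7 CPM (median 37.3 CPM) in non-fragmented ones. WSD 11 and WSD 16 were the only non-fragmented blastocysts within the fragmented range. The log2 fold change was -1.11 (SE 0.31; adjusted p = 0.984 by edgeR). *CORO2A* (ENSMMUG00000002853; chromosome 15, 44720721–44792900, plus strand), a coronin that binds actin, ran from 6.36 to 36.8 CPM (median 24.1 CPM), against 19.9 to 90.1 CPM (median 45.9 CPM). Its log2 fold change was -1.02 (SE 0.31; adjusted p = 0.984 by edgeR), and the classes overlapped.

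The remaining 8 ranked genes with a lower level had log2 fold changes from -3.25 to -0.66. *SCO1* (ENSMMUG00000013833), a copper chaperone for cytochrome c oxidase, had 132 ± 35.4 CPM (SD, n = 9) in fragmented and 210 ± 66.4 CPM (SD, n = 8) in non-fragmented blastocysts. *ETHE1* (ENSMMUG00000019264), an enzyme of mitochondrial sulfide oxidation, had 19.2 ± 4.10 CPM (SD, n = 9) and 35.0 ± 23.5 CPM (SD, n = 8), with 89.4 CPM in WSD 16. WSD 16 was also the highest in *FAM185A* (ENSMMUG00000037761) with 32.8 CPM, and in *LAIR1* (ENSMMUG00000043342), an inhibitory receptor of leukocytes, with 28.2 CPM. The log2 fold change of *LAIR1*, -3.25, was the largest of these 8 in size, and it was -2.26 without WSD 16. *EPC2* (ENSMMUG00000023176), *CGRRF1* (ENSMMUG00000004594), ENSMMUG00000039047 and ENSMMUG00000015269 had log2 fold changes of -1.38, -1.09, -0.91 and -1.51. Without WSD 16, that of ENSMMUG00000015269 was -0.98 and that of *ETHE1* was -0.52 in place of -0.87. That of *EPC2* was -0.94 without WSD 10, and that of *CGRRF1* was -0.76 without WSD 12.

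No gene of the lineage lists was called. Of 12 trophectoderm genes tested, from 16 listed, 0 reached an unadjusted p under 0.05, and the median log2 fold change was 0.23. With each blastocyst left out in turn, it ran from 0.05 (without WSD 7, with 6 of the 12 higher) to 0.57 (without WSD 17, with 1 gene at that p). The summed level of this list varied widely within each class, 7288 ± 6517 CPM (SD, n = 9) and 6407 ± 3587 CPM (SD, n = 8), most of it from *KRT18*. Of 10 epiblast genes tested, from 12 listed, *GDF3*, a ligand of the TGF-β family, had a higher level at an unadjusted p under 0.05 by edgeR, with 39.6 ± 50.6 CPM (SD, n = 9) against 14.4 ± 8.52 CPM (SD, n = 8; log2 fold change 1.46). Of all 12724 genes tested, 275 (2.16%) were higher at that p. The *GDF3* medians, 11.1 and 13.9 CPM, had the opposite order, and the mean rested on WSD 8, WSD 18, WSD 7 and WSD 6 with 161, 64.7, 51.2 and 39.5 CPM. With detected genes as a covariate, and without WSD 7, WSD 8, WSD 10, WSD 11, WSD 15, WSD 16, WSD 17 or WSD 18, 0 epiblast genes were higher at an unadjusted p under 0.05. The other 9 did not reach an unadjusted p under 0.05, and the median of the 10 was 0.19, or 0.09 (without WSD 17) to 0.26 (without WSD 9) with each blastocyst left out.

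Of 9 primitive endoderm genes tested, from 12 listed, 0 reached an unadjusted p under 0.05, and 6 had a higher and 3 a lower fitted level, with a median of 0.44. The log2 fold changes ran from -0.35 for the apolipoprotein *APOE* to 1.65 for *COL4A1*, of the basement membrane. With each blastocyst left out in turn, this median ran from 0.16 (without WSD 18) to 0.94 (without WSD 9), and without WSD 9, 3 of the 9 were higher at an unadjusted p under 0.05, where 385 of all 12933 genes were. Without the filter, 2 of the 11 in the table reached it and the median was 0.50, where 2891 of all 30007 genes were higher at that p. The genes that the filter removed were *FOXA2*, with 7.88 ± 10.4 CPM (SD, n = 9) and 1.57 ± 4.06 CPM (SD, n = 8), and *RSPO3*, with a mean of 16.1 ± 22.4 CPM (SD, n = 9) in the fragmented class and medians of 0.852 and 0.344 CPM. Once detected genes entered the model as a covariate, the medians of the trophectoderm and primitive endoderm genes were -0.73 and -0.81, so their direction depends on that measure.

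Genes listed for cytokinesis and the actin cortex, some of which build the contractile ring that divides the cell, were all tested, and 19 of 25 had a higher fitted level (median log2 fold change 0.18), where 6435 of all 12724 genes did (median 0.00). The mitotic kinase *PLK1* had 577 ± 97.5 CPM (SD, n = 9) in fragmented and 420 ± 88.0 CPM (SD, n = 8) in non-fragmented blastocysts (log2 fold change 0.46, SE 0.15; adjusted p = 0.984 by edgeR). The kinase *AURKA*, which acts at the spindle poles, had 176 ± 33.7 CPM (SD, n = 9) and 134 ± 32.5 CPM (SD, n = 8; log2 fold change 0.40). These were the only 2 of the 25 at a higher level with an unadjusted p under 0.05 by edgeR, against 275 of all genes tested (2.16%), and 0 of the 25 were called. Without WSD 9, 5 were higher at that p, where 385 of all 12933 genes were, and without WSD 7, WSD 10 or WSD 11, 1 was. Once detected genes entered the model as a covariate, 12 of the 25 had a higher level and the median was 0.00.

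All 16 genes listed for mitochondrial translation and import were tested, and each had a lower fitted level in fragmented blastocysts, with a median log2 fold change of -0.25, where 6289 of all 12724 genes had a lower level. *MRPL45*, of the mitochondrial ribosome, and the carrier *SLC25A2* were at an unadjusted p under 0.05 by edgeR, with log2 fold changes of -0.38 and -1.10, and neither was called. Of all genes tested, 172 (1.35%) were lower at that p. The direction rested in part on WSD 16, where the list summed to 8259 CPM, against means of 4227 ± 623 CPM (SD, n = 9) and 4859 ± 1488 CPM (SD, n = 8). Without WSD 16, 4 of the 16 genes had a higher level, the median was -0.09 and 0 were at an unadjusted p under 0.05. There were also 0 at that p without WSD 4, WSD 6, WSD 7 or WSD 18. Without WSD 9, 5 were lower at that p, where 312 of all 12933 genes were. For *SLC25A2*, WSD 16 had 55.1 CPM, and the class medians were 5.58 and 6.63 CPM. Once detected genes entered the model as a covariate, 13 of the 16 had a higher level and the median was 0.08. With the log10 total count as the covariate, 0 of the 16 had a higher level, the median was -0.33 and 0 were at an unadjusted p under 0.05.

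Of 22 genes that the study names, 14 were tested, 9 had a higher fitted level, the median log2 fold change was 0.07 and 0 reached an unadjusted p under 0.05. Without the filter, 15 of the 21 in the table had a higher level, 4 of them at that p, and the median was 0.44, where 17884 of all 30007 genes had a higher level, 2891 of them at that p, and the median was 0.16. With detected genes as a covariate, 4 of the 14 had a higher level and the median was -0.36, and without WSD 7 it was -0.02. Among granulosa and cumulus cell genes, 3 of 14 passed the filter, with a median of -0.17. Without the filter, 9 of the 14 had a higher level and the median was 1.04, so the direction depends on the filter. Of these, *FOXL2*, *INHBA* and *PTX3* had no count in the non-fragmented class. The hyaluronan synthase *HAS2* had 2.10 ± 2.01 CPM (SD, n = 9) and 0.363 ± 0.323 CPM (SD, n = 8), with an unadjusted p under 0.05 by edgeR. The summed level of this list was 227 ± 66.6 CPM (SD, n = 9) and 253 ± 48.5 CPM (SD, n = 8), most of it from *CYP11A1* with a mean of 183 CPM. Y-linked genes summed to at least 253 CPM in 6 of the 9 fragmented and 4 of the 8 non-fragmented blastocysts and to at most 3.91 CPM in the others. Of these genes, 0 of the 8 tested had an unadjusted p under 0.05, with a median log2 fold change of 0.12, or -0.19 (without WSD 18) to 0.42 (without WSD 16) with each blastocyst left out. The median was -0.58 with detected genes as a covariate and -0.22 with the log10 total count as a covariate.

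The spread between blastocysts of the same class was measured as the mean Euclidean distance on log2 CPM from each blastocyst to the others of its class. It was 153 ± 11.7 (SD, n = 9) in fragmented and 169 ± 16.4 (SD, n = 8) in non-fragmented blastocysts, a difference of -15.5 (two-sided exact permutation test, p = 0.373; adjusted p = 0.497). WSD 16, WSD 10 and WSD 12 lay farthest from their class, at 196, 186 and 179, and WSD 8 was the farthest fragmented blastocyst at 177. All 9 fragmented blastocysts were closer on average to their own class than to the other, as were 3 of the 8 non-fragmented ones, and the mean distance between the classes was 162. On rank correlations, and on the 500 most variable genes, the sign of the difference was the opposite, so no class was more uniform by all measures. Distances were not computed at equal depth.

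By gene, the median SD of log2 CPM was 0.675 in fragmented and 0.721 in non-fragmented blastocysts, and 42.0% of genes had a larger spread in the fragmented class. The median difference by gene, -0.0399, rested on WSD 16, and without it was 0.0311. A test of spread for each gene, by limma on the deviations from the class median, called 0 of 12724 genes. At an unadjusted p under 0.05 there were 341 genes, of which 81 had more and 260 less spread in the fragmented class. Without WSD 16 these were 101 and 144, and without WSD 8 they were 70 and 521. With deviations from the class mean, 353 had more and 687 less spread at that p, and 2 genes were called, ENSMMUG00000023048 and ENSMMUG00000049833, the second being the gene that is high in WSD 4 and WSD 5.

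In a principal component analysis of the 500 most variable genes, PC1 held 46.0% of the variance and did not separate the classes. It was above 0 in 4 of the 9 fragmented and 4 of the 8 non-fragmented blastocysts, with means of 1.25 ± 23.5 (SD, n = 9) and -1.40 ± 14.6 (SD, n = 8; two-sided exact permutation test, p = 0.783, adjusted p = 0.783). The genes with the largest weights on PC1, looked up after the analysis, were the keratin *KRT19*, the proton pump *ATP12A* and the matrix gene *SPARC* on the positive side, and *BECN2*, the germ cell gene *NANOS1* and the transcription factor *SPIC* on the negative side. *KRT19* alone ran from 6.04 to 2968 CPM among the 17 blastocysts. PC2 held 11% of the variance and was 4.27 ± 6.44 (SD, n = 9) in fragmented and -4.81 ± 10.2 (SD, n = 8) in non-fragmented blastocysts (two-sided exact permutation test, p = 0.0443; adjusted p = 0.0708). WSD 16, WSD 10 and WSD 12 had the lowest PC2, at -19.1, -15.1 and -14.1, followed by the fragmented WSD 8 at -10.6.

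**Figure D3:**
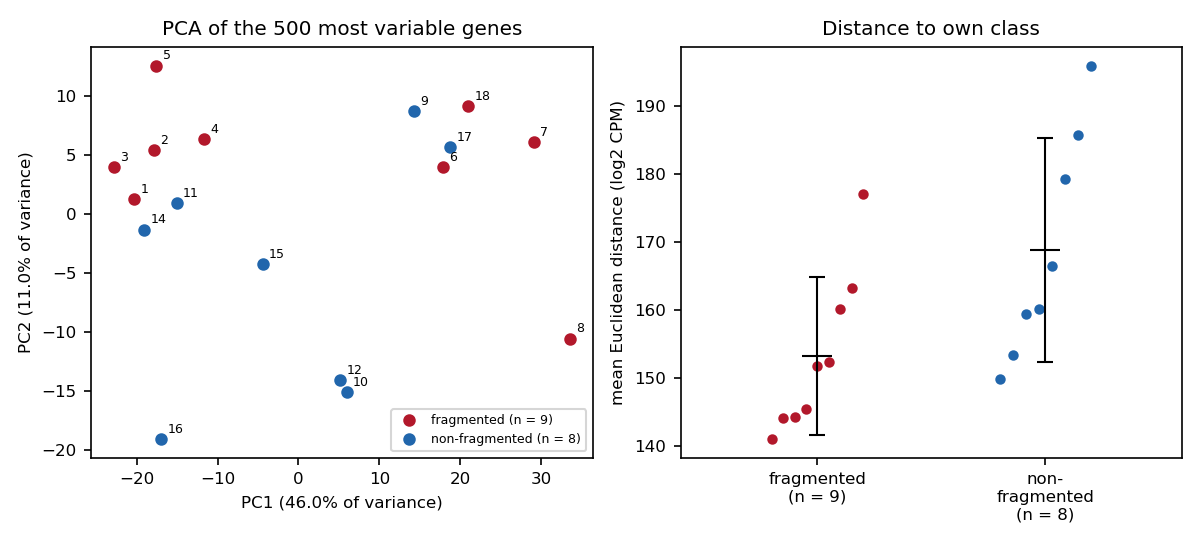
Left, PC1 and PC2 scores of the 17 WSD blastocysts, numbered by replicate, with the share of variance on each axis. Right, the mean Euclidean distance (log2 CPM) of each blastocyst to the others of its class, with the mean and SD of 9 fragmented and 8 non-fragmented blastocysts. The classes mix along PC1, and WSD 10, WSD 12 and WSD 16 lie low on PC2 and far from their class.

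The genes at the ends of PC2 differed in transcript length. Of the 10 genes with the largest weights at its positive end, among them *CMKLR2*, the laminin *LAMC1*, the deadenylation scaffold *CNOT1* and the nucleoporins *NUP188* and *NUP205*, 8 had a transcript in the RefSeq annotation, with a median length of 7934 bases. At the negative end, with *COX14* of cytochrome c oxidase assembly, *DCXR*, *FOLR1* and the actin-sequestering *TMSB4X*, 8 of 10 had one, with a median of 854.5 bases. All tested genes with a length (87.9%) were then ordered by it, as a description chosen after the values were seen. Among 4 groups of nearly equal size, 27.6% of genes in the group with the shortest transcripts had a higher fitted level in the fragmented class, and the share was 48.3%, 61.4% and 66.5% in the next groups up to the longest, with median log2 fold changes of -0.18, -0.01, 0.09 and 0.15.

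The median level of the longest group minus that of the shortest, on log2 CPM relative to the mean of the 17, ran from -1.06 to 0.62 in fragmented blastocysts (median 0.27) and from -1.69 to 0.69 in non-fragmented ones (median 0.13). The lowest values were those of WSD 16, WSD 8, WSD 12 and WSD 10, at -1.69, -1.06, -0.83 and -0.60. Without WSD 16, the share of genes with a higher level was 47.0% in the shortest and 59.7% in the longest group, and without WSD 8 it was 18.2% and 69.4%. The genes of mitochondrial translation and import had a median length of 1686.5 bases and those of cytokinesis and the actin cortex 3502 bases, where all tested genes had 3216 bases. The part of transcript length in the differences of these lists was not tested.

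**Figure D4:**
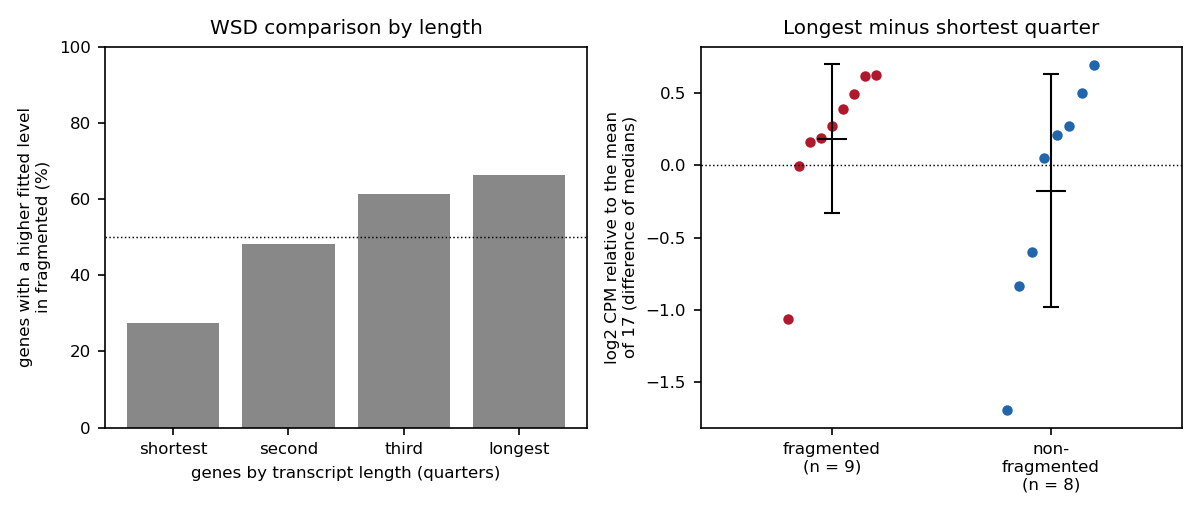
Left, the percentage of genes with a higher fitted level in fragmented WSD blastocysts, in 4 groups of genes by transcript length. Right, the level of the longest minus that of the shortest group (log2 CPM relative to the mean of 17) in each blastocyst, with the mean and SD of 9 fragmented and 8 non-fragmented blastocysts. The share ran from 27.6% to 66.5%, and WSD 16 and WSD 8 were the lowest of their classes.

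The same contrast among SCD blastocysts gave 0 called genes of 13561 by edgeR, and 0 by DESeq2, with 251 (1.85%) at a higher and 89 (0.656%) at a lower level in the fragmented class at an unadjusted p under 0.05. Of the 275 genes with a higher level after WSD, 266 were tested after SCD and 151 had the same direction, where 52.6% of all genes tested there had a higher level. Of the 172 genes with a lower level, 169 were tested and 71 had the same direction. The test of the difference between the diets called 0 of 15285 genes by edgeR, with 501 at an unadjusted p under 0.05, and 1 by DESeq2 (ENSMMUG00000045289).

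After SCD, *WEE2* was at 153 and 65.2 CPM in the fragmented SCD 6 and SCD 3 and at 92.6 CPM in the non-fragmented SCD 11. Its log2 fold change was 1.58 after SCD (test of the difference between the diets, adjusted p = 0.999 by edgeR). For *TDH* it was 2.27 (test of the difference between the diets, adjusted p = 0.999 by edgeR), and for *GDF9* it was 2.19. Of 26 oocyte genes tested after SCD, 20 had a higher level in the fragmented class, with a median of 1.42. At an unadjusted p under 0.05 there were 4 (*GDF9*, *BTG4*, *OOSP1* and *OOSP4A*). Of all 13561 genes, 251 (1.85%) were higher at that p, and their median was 0.02. At equal depth, 27 to 39 of the 39 listed genes were detected in fragmented SCD blastocysts (median 33) and 23 to 36 in non-fragmented ones (median 30). The highest were SCD 3 with 39 and SCD 6 with 38. The list summed to 1419 ± 708 CPM (SD, n = 6) and 1192 ± 435 CPM (SD, n = 8). How far this list rests on SCD 3 and SCD 6 was not tested. The medians of the trophectoderm, epiblast, primitive endoderm, cytokinesis and mitochondrial genes were -0.03, -0.21, -0.22, 0.01 and -0.14 after SCD.

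Detected genes at equal depth numbered 19483 ± 3064 (SD, n = 6) in fragmented and 18244 ± 1077 (SD, n = 8) in non-fragmented SCD blastocysts (two-sided exact permutation test, p = 0.345), with 25222 in the fragmented SCD 3. The difference between the diets in this contrast was 245 genes (two-sided exact permutation test within each diet, p = 0.880). Both values rested on SCD 3: without it, the difference between the SCD classes was 91.1 genes (exact permutation test, p = 0.893) and the difference between the diets 1393 genes (exact permutation test within each diet, p = 0.132). The difference between the diets was below 0 without SCD 4 (-182) or SCD 5 (-325). The total counts after SCD were 20.9 ± 5.50 M (SD, n = 6) and 19.2 ± 4.74 M (SD, n = 8; two-sided exact permutation test, p = 0.540). By transcript length the order was the reverse of that after WSD, with 60.0% of genes at a higher level in the shortest group and 46.7% in the longest, a difference between the diets that was not tested. The p-values treat blastocysts as independent, although some came from the same female and the female of origin was not used.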

How the data were processed

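RNA of single blastocysts was copied to cDNA, amplified and sequenced as single reads. The authors trimmed the reads (Trimmomatic 0.39), placed them on the Mmul_10 assembly of the rhesus macaque (STAR 2.7.0) and deposited a raw count of reads for each of 35395 Ensembl genes, with no normalization. Identifiers were matched to symbols for 24173 genes, and for 11665 of the 12724 genes tested. Coordinates and transcript lengths (the longest transcript of a gene) are from the RefSeq annotation of Mmul_10, matched by symbol.

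In R 4.3.3, genes were filtered by filterByExpr, scaled by TMM and tested by edgeR 4.0.16 (quasi-likelihood F test, legacy=TRUE, Benjamini-Hochberg adjustment over all genes tested, threshold 0.05), on the 17 WSD blastocysts alone. The spread of each gene was tested by limma 3.58.1 on log2 CPM with a prior count of 2 (a count of 0 does not show equal spread). The PCA used DESeq2 1.42.0 (variance-stabilizing transformation). Single values were compared in Python 3.11.15 (numpy 2.4.6, scipy 1.17.1) by two-sided exact permutation tests over all 24310 relabellings (3003 for SCD), adjusted over 8 measures. The reads carry no molecular identifiers, so counts include copies made in amplification.

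Members, gene lists and tests were chosen with earlier results of these data known. Genes given by name are those of the lists (trophectoderm, epiblast, primitive endoderm, cytokinesis and actin cortex, mitochondrial translation and import, granulosa and cumulus cells, genes the study names, Y-linked genes; 1 further list is not reported) and the 10 genes with the smallest p in each direction with a mean of 1 CPM or more. Genes called by another test, genes whose classes do not overlap and genes with the largest weights on PC1 and PC2 were named after their values were seen. Alternatives were the Wald test of DESeq2, edgeR with legacy=FALSE, with robust=TRUE or with RLE scaling, all genes without a filter, a minimum of 1 CPM in 8 blastocysts, a covariate (log10 total count, or detected genes), a model of all 31 blastocysts, other detection minimums, distances and PCA inputs, and each blastocyst left out in turn. Thinned counts, fits without WSD 1 and WSD 2 or without WSD 4 and WSD 5, the oocyte list and the ordering by transcript length were added after the values were seen.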

Additional observations from a re-analysis of the deposited data

Results flagged for a closer look

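Dixon's test asked, in 56 groups of 8 or 9 blastocysts, whether the extreme blastocyst was far from its nearest neighbour, on log2 CPM where the measure was a gene. A blastocyst stood apart in 6 of them, where chance gives about 1 in 20 groups, or 2.8 here, and the genes were ranked for their differences. In the fragmented class, WSD 4 lay far below the others in *WEE2* (0.176 CPM), *NLRP4* (0.0440 CPM), *ACCSL* (0 CPM) and *RSPO2* (0.0440 CPM), and WSD 8 lay far below them on PC2, at -10.6. In the non-fragmented class, WSD 9 was the only blastocyst with *MAP3K7CL*, at 0.714 CPM.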

How the results depend on the processing

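The number of genes called between the WSD classes, 0 by edgeR, was 11 with DESeq2's Wald test, 6 with legacy=FALSE, 1 without WSD 4 and WSD 5 (added after seeing the data), 0 to 1 with each blastocyst left out in turn, and 447 at an unadjusted p under 0.05. It was 0 under the other alternatives, with 170 genes at an unadjusted p under 0.05 when the log10 total count was a covariate, 220 with the number of detected genes (106 higher, 114 lower), 985 without WSD 8 (398 higher, 587 lower, the main balance being 275 and 172), 697 without WSD 9, 751 in the model of all 31 blastocysts and 3869 without a filter. For SCD the unadjusted count was 340. For the difference between the diets it was 501, and DESeq2 called 1 gene. For spread by gene, the unadjusted count was 341, with 591 without WSD 8 and 245 without WSD 16, where the median difference was 0.0311 in place of -0.0399. With deviations from the class mean it was 1040, and 2 genes were called. The difference in spread, -15.5, was 0.00120 on rank correlations (p = 0.951) and 5.19 on the 500 most variable genes (p = 0.165, exact permutation tests), and -22.3 to -6.49 with each blastocyst left out. The difference in PC1, 0.138 SD, was -0.140 on all tested genes and -0.0915 to 0.319 with each left out, below 0 without WSD 7 (-0.0915), WSD 8 (-0.0238) or WSD 18 (-0.0268). For ENSMMUG00000049833, the log2 fold change was -0.39 with DESeq2 and -0.49 without WSD 4 and WSD 5. The cause was not tested for these changes. The differences in detected genes kept their direction and an unadjusted p under 0.05 by exact permutation tests (adjusted values were not computed for the alternatives), at 1472 with 5 counts or more, 286 with 1 CPM or more and 1899 to 2572 with each blastocyst left out, and at equal depth at 1255 to 1757. After SCD the difference at equal depth was 91.1 to 1809 with each SCD blastocyst left out, and the difference between the diets -325 to 1393 with each of the 31 left out (added after seeing the data), below 0 without SCD 4 (-182) or SCD 5 (-325) and farthest from its value of 245 without SCD 3 (1393). The other 19 ranked genes kept their direction wherever tested. No paired analysis was possible because fragmented and non-fragmented WSD blastocysts share no replicate numbers, and neither the labels nor the deposited counts give the female of origin, by which no block was fitted.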
